A study of Homo sapiens with 94 samples.

Results

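Intragenic antisense start sites are places inside a gene where RNA polymerase II begins a capped transcript on the strand opposite to that gene. The authors' deposited PRO-cap table of this class held 2934 sites in 1497 host genes, out of 40675 sites and regions in the 7 deposited start-site tables, and every row was kept. PRO-cap maps the capped 5′ ends of RNA still engaged by the polymerase, so a site's level counts initiation there and not the amount of stable antisense RNA. The cells were HEK293 T-Rex Flp-in, a human embryonic kidney line in which doxycycline switches on a gene placed at a fixed integration site. All 3 groups carried the same construct, TET-CD-GFP, a TET catalytic domain fused to green fluorescent protein. The groups were cells given 880 nM 5-aza-2'-deoxycytidine (Aza) over 48 h, cells given 1 µg/mL doxycycline over 48 h, and untreated cells, with 3 PRO-cap libraries each and chicken DF-1 cells added as a spike-in at 10:1. The series holds no PRO-cap library with doxycycline and the mutant construct. An effect of doxycycline itself and an effect of TET-CD-GFP therefore cannot be told apart at these sites.

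Initiation inside genes is normally kept low by the chromatin that elongating polymerase leaves behind, and cytosine methylation of gene bodies is part of that chromatin. Aza is built into DNA and traps the DNA methyltransferases, so that methylation is lost as cells divide. TET enzymes oxidise 5-methylcytosine to 5-hydroxymethylcytosine and further products. In the authors' deposited table of sense total RNA, TET1 was higher by 2.34 ± 0.03 (log2, SE) in doxycycline-treated cells with TET-CD, and by 1.98 ± 0.03 in those with the mutant TETmut-CD, each against untreated cells of the same kind. With Aza, TET1 differed from untreated cells by -0.08 ± 0.07.

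The deposited tables give a mean normalised read count over the 9 PRO-cap libraries (called the level here), log2 fold changes with standard errors, and p-values adjusted over the sites of the class. They hold no value per library. Levels of a single group are therefore worked out below from the deposited mean and fold changes and carry no error of their own. Sites are named as higher or lower where that adjusted p was under 0.05. The labels do not say whether libraries of a group came from separate cultures, though the series' design text calls them biological replicates, so the p-values measure only the spread between these libraries. The median level was 11.6 normalised reads, with the middle of the range between 5.30 and 31.1, and the depth of each library is not given. Of the host genes, 794 held 1 site, 359 held 2 and 182 held 3. The sites were narrow, with a median width of 120 bases.

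The letters of the sites themselves are not shown, because the tables use the hg19 build. The promoters of 2 host genes whose antisense sites were called the same way with both treatments are shown instead, that of WNT9A, where the site was higher, and that of PPP1R15A, where it was lower. Each line is the 250 bases before a start that RefSeq lists for the host, GRCh38.p14, read 5′ to 3′ on the host's strand, and capitals mark the dinucleotide CG, the sequence that DNA methyltransferases act on and which reads the same on both strands.
WNT9A (chr1:227947933-227948182, minus strand): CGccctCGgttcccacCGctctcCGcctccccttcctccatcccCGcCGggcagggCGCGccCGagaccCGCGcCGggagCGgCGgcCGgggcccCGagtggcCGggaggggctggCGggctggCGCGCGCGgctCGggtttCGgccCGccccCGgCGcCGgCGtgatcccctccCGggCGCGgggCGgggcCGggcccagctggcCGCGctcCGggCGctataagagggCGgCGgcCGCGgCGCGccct
PPP1R15A (chr19:48872171-48872420, plus strand): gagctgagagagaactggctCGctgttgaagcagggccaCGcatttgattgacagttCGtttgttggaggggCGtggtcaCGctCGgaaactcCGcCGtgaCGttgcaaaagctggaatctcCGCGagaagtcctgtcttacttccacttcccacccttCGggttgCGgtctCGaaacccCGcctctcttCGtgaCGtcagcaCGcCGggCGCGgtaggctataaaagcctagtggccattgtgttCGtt
The WNT9A window held 44 CG dinucleotides and 84.4% G and C, and the PPP1R15A window held 22 and 57.2%. Because the builds differ, RefSeq starts were not matched to the primary start sites measured by PRO-cap, here or in the medians that follow. Of the 1497 hosts, 1059 matched a RefSeq promoter by symbol, with 1647 windows and a median of 20 CG against 11 over all 35116 RefSeq windows, of which 93.9% held at least 1. The median was 24 over the windows of hosts with sites called higher with Aza and 19 over those called lower. With doxycycline these medians were 24 and 23. No methylation value for these windows was used here.

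With Aza, antisense sites were called in both directions, at shares close to those of the other start-site classes together. The authors' deposited table gave 70 sites called higher in Aza-treated than in untreated cells, in 62 host genes, and 95 called lower, in 85 host genes, which is 2.39% and 3.24% of the class. With doxycycline 75 sites were called higher and 27 lower than in untreated cells, 2.56% and 0.92% of the class. Over the other 6 start-site classes together the called shares were 2.28% higher and 3.46% lower with Aza, and 2.58% higher and 2.55% lower with doxycycline. At sense start sites inside genes, the class most like this one, Aza gave 55 higher and 77 lower of 2281 (2.41% and 3.38%), and doxycycline gave 66 higher and 46 lower (2.89% and 2.02%). The median log2 fold change of the class was 0.04 with Aza and 0.01 with doxycycline, and both medians were below 0 (-0.05 and -0.03) over sites with a level of at least 10.

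**Figure D1:**
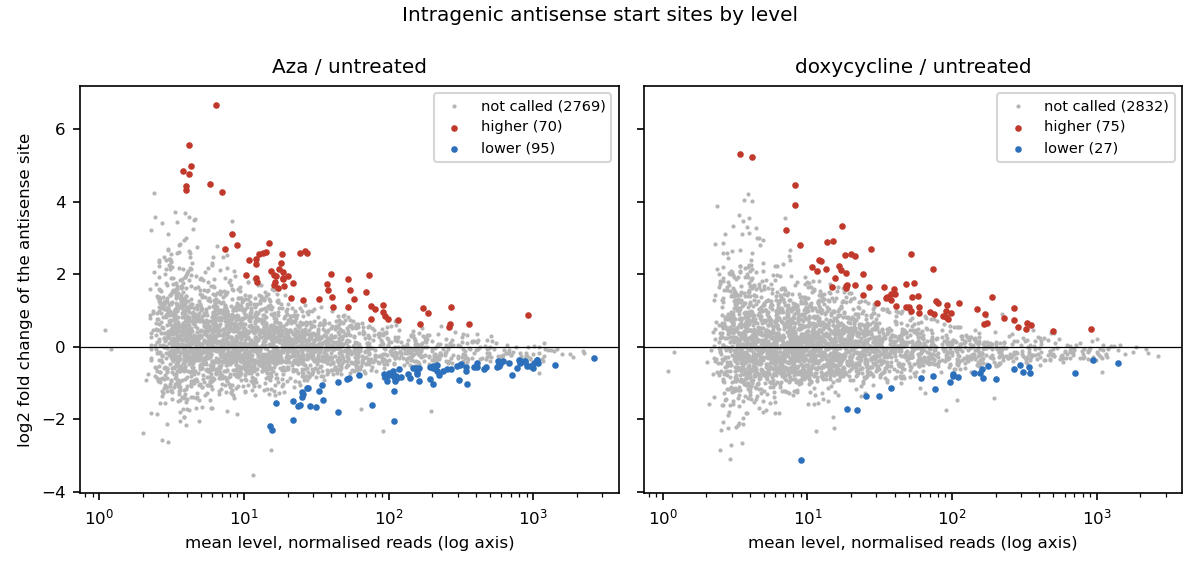
Each point is an intragenic antisense start site, placed by its mean level in normalised reads (log axis) and its log2 fold change with Aza (left) or doxycycline (right) over untreated cells. Red points were called higher (70 and 75 sites), blue points lower (95 and 27) and grey points neither; the called lower sites lie mostly to the right, at high levels.

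Among sites named as higher by their fold change, that in PGF, a vascular growth factor ligand, had a level of 36.4 in Aza-treated, 39.4 in doxycycline-treated and 6.06 in untreated cells (hg19 chr14:75419780-75420190, plus strand). Its log2 fold change in the authors' deposited table was 2.59 ± 0.48 with Aza (SE, adjusted p = 1.43e-05) and 2.70 ± 0.48 with doxycycline (adjusted p = 5.75e-06). In WNT9A, which encodes a Wnt ligand, the site at chr1:228107770-228107900 had levels of 39.8 with Aza and 26.5 with doxycycline, against 6.62 in untreated cells. The fold changes there were 2.59 ± 0.49 and 2.00 ± 0.51. GRM4, a metabotropic glutamate receptor gene, held 5 sites, of which the same 2 were called higher with each treatment. They lay 86185 and 98400 bases inside the gene, while the pair at 9625 and 10695 bases from its start had Aza fold changes of 0.19 ± 0.24 and -0.27 ± 0.20. The called site of higher level, at chr6:34024140-34024350, had levels of 92.5 with Aza and 104 with doxycycline, against 23.7 in untreated cells.

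H6PD, an enzyme gene of the endoplasmic reticulum, held the site with the lowest doxycycline p among those named. At chr1:9310190-9310290 the level was 54.2 in Aza-treated and 87.0 in doxycycline-treated cells, against 14.9 in untreated cells, with log2 fold changes of 1.86 ± 0.36 and 2.54 ± 0.35 (adjusted p = 3.57e-05 and 5.06e-10 in the authors' deposited table). The site in the keratin gene KRT80 rose by 2.00 ± 0.34 with Aza and 1.60 ± 0.35 with doxycycline. On chromosome 15, 2 hosts of named sites lay near each other: RP11-321F6.1, which the files give by clone name only, and SMAD6, an inhibitor of BMP and TGF-beta signalling. Of the 5 antisense sites in RP11-321F6.1, 3 were called higher with Aza and 3 with doxycycline, and all 5 had positive fold changes with both. In SMAD6, 1 of 5 sites was called higher with each treatment, with 1.73 ± 0.35 for Aza and 1.46 ± 0.36 for doxycycline. PALMD and AGAP3 completed the Aza list, at 1.56 ± 0.35 and 1.77 ± 0.46. TRERF1 (1.73 ± 0.30), RAB40B (2.50 ± 0.48) and CTD-2555C10.3 (1.69 ± 0.44) completed that of doxycycline.

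Among hosts of sites named as lower by their fold change, PPP1R15A encodes GADD34, which directs the dephosphorylation of the translation factor eIF2α. Its site at chr19:49378930-49379240 had a level of 17.3 in Aza-treated and 21.4 in doxycycline-treated cells, against 55.3 in untreated cells, with fold changes of -1.68 ± 0.41 and -1.37 ± 0.40 (adjusted p = 0.00208 and 0.0249 in the authors' deposited table). ERN1, which encodes the stress sensor IRE1, had 146 with Aza and 161 with doxycycline, against 299 in untreated cells, and fold changes of -1.04 ± 0.22 and -0.90 ± 0.22. TP53BP2, whose product binds p53, had log2 fold changes of -1.51 ± 0.50 with Aza and -1.74 ± 0.51 with doxycycline. For that site the Aza adjusted p was 0.0467, and it became 0.0504 when p-values were adjusted over all 7 classes. CAMK1D, a calmodulin-dependent kinase gene, held its called site 361650 bases from its start, with levels of 42.5, 57.7 and 130 in Aza-treated, doxycycline-treated and untreated cells and fold changes of -1.61 ± 0.29 and -1.17 ± 0.28. Of the 10 sites in CAMK1D, 4 had negative fold changes with each treatment, and the median was 0.70 with Aza and 0.39 with doxycycline. With Aza the lowest fold changes among named sites were -2.04 ± 0.53 at RNF187, a ubiquitin ligase gene, and -2.02 ± 0.48 at GLCE, an enzyme of heparan sulphate synthesis. EFCAB4B, ITGA8 and RP11-167N24.3 were between -1.81 and -1.60. With doxycycline, NCKAP1 (-1.35 ± 0.42), NOVA2 (-1.14 ± 0.35), SH2D3C (-0.97 ± 0.23) and KIT (-0.87 ± 0.28) completed the list.

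**Figure D2:**
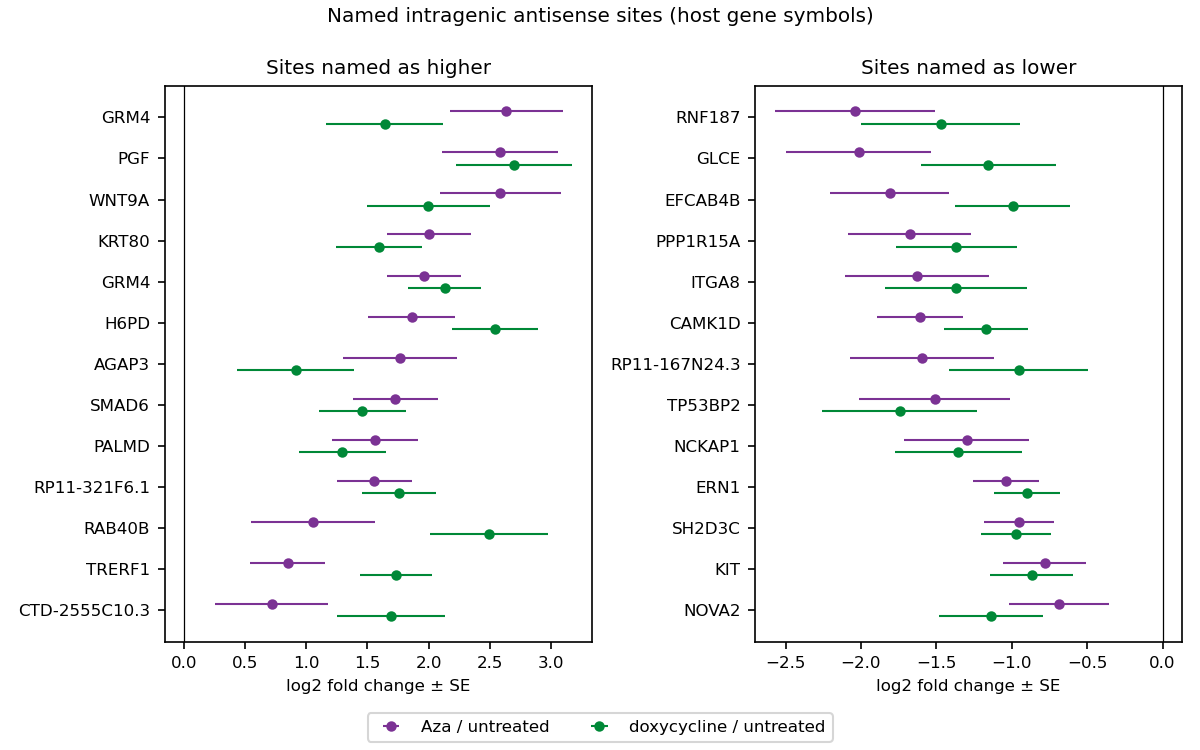
Points give the log2 fold change with its standard error (bars) of the sites named as higher (left) and lower (right), labelled by host gene, for Aza (purple) and doxycycline (green) over untreated cells. GRM4 appears 2 times because 2 of its sites were named, and all points in each panel lie on the same side of 0 for both treatments.

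Both treatments were compared with the same 3 untreated libraries, so the likeness of their fold changes at a site is partly built in. The direct comparison of Aza with doxycycline does not use those libraries in its difference. In that column of the authors' deposited table, DESeq2's adjusted p put 0 sites higher and 0 lower (0.0% each way), and 134 had an unadjusted p below 0.05. The median of Aza over doxycycline was -0.01 on the log2 scale. The lowest adjusted p, 0.0632, was at FBLN1, which encodes an extracellular matrix protein, at 5.73 ± 1.35 with Aza over doxycycline. The level there was 18.8 with Aza and 0.354 with doxycycline, so the fold change rests on a level near 0 and is no bound. This site was the only 1 that passed when p-values were adjusted over all 7 classes or at a threshold of 0.1. RAB40B differed by -1.44 ± 0.42 and TRERF1 by -0.88 ± 0.27, both lower with Aza than with doxycycline, with adjusted p of 0.327 and 0.332. A median standard error of 0.57 for this comparison limits what could be told apart at a single site.

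Sites called higher had lower levels and lay farther into their hosts than sites called lower, which is given as a description with no test. The 70 sites called higher with Aza had a median level of 19.4 and a median width of 160 bases, against 163 and 520 bases for the 95 called lower. With doxycycline the median levels were 40.6 for sites called higher and 141 for those called lower. By level, the share called lower with Aza was 0.0% under 10 normalised reads, 1.54% from 10 to 30, 3.56% from 30 to 100, 16.4% from 100 to 300, and 34 of 131 sites at 300 and more. The share called higher was 0.896%, 3.56%, 4.51%, 3.48% and 1.53% in the same order. The standard error fell with level, its median being 0.87 in the lowest bin and 0.14 in the highest, so small changes could be called only at the strong sites. The fold changes themselves also moved with level: the Aza median was 0.20 in the lowest bin and -0.25 in the highest, where 22 of 131 sites had a positive value. With doxycycline these medians were 0.08 and -0.16. Sense start sites inside genes showed Aza medians of 0.26 and -0.23 in the same bins. The part of level or precision in these shares was not tested.

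**Figure D3:**
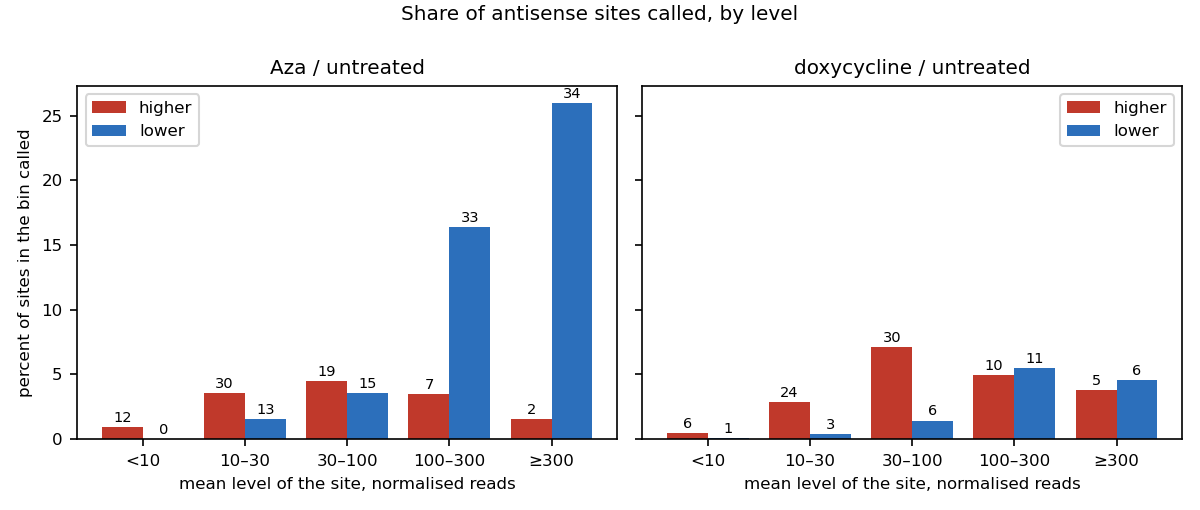
Bars give the percent of antisense sites in each bin of mean level (normalised reads) called higher (red) or lower (blue) with Aza (left) or doxycycline (right) over untreated cells, with the number of sites above each bar. With Aza 33 and 34 sites in the 2 highest bins were called lower, while with doxycycline 11 and 6 sites were.

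The 8 sites of highest level lay in RHOBTB1, FSTL3, BBC3, BMP4, HNRNPF, PLAC8, SET and BCOR, between 1409 and 2637 normalised reads. Of these, SET, a histone chaperone gene, was called lower with both treatments, at 1223 with Aza and 1267 with doxycycline, against 1736 in untreated cells (-0.51 ± 0.12 and -0.45 ± 0.12). BCOR was called lower with Aza, at -0.33 ± 0.11 (adjusted p = 0.0473 in the authors' deposited table, or 0.0516 when adjusted over all 7 classes). At FSTL3, which encodes an activin-binding protein, the levels were close between groups, at 2117 with Aza, 2208 with doxycycline and 2301 in untreated cells (-0.12 ± 0.12 and -0.06 ± 0.12). The site of highest level among those called higher with Aza was at PTMA, with 1197 in Aza-treated, 911 in doxycycline-treated and 652 in untreated cells (0.88 ± 0.13 and 0.48 ± 0.13). PTMA has processed copies elsewhere in the genome, so how its reads were shared out is uncertain.

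Distance from the host's start could be measured for 2670 sites whose host had a primary start site in the authors' deposited table. The median distance was 20035 bases for sites called higher with Aza and 3410 for those called lower, beside 5180 over all sites. With doxycycline the medians were 19950 and 3667.5 bases. Of sites called higher, 64.5% with Aza and 64.6% with doxycycline lay beyond 10 kb, against 29.6% and 33.3% of those called lower and 40.9% of all. The gradient was present in the fold changes of the whole class: within 1 kb of the host's start the Aza median was -0.16, and beyond 20 kb it was 0.19, with 35.4% and 61.5% of sites positive. For doxycycline the medians were -0.23 and 0.17. The median level was between 10.6 and 12.5 normalised reads in every distance bin. Among strong sites, with a level of 100 or more, 0 of 77 within 2 kb of the host's start were called higher with either treatment and 16 were called lower with Aza. Beyond 2 kb, 7 of 216 were called higher with Aza and 41 lower, and 13 were called higher with doxycycline and 8 lower.

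BCOR, a corepressor gene on the X chromosome, held 35 sites, more than any other host. TRIO followed with 16, and MAML2, MBNL2 and SKIDA1 had 11 each. The BCOR sites ran over hg19 chrX:39942730-40030630 and ranged from 2.83 to 2637 normalised reads. With Aza 27 of the 35 had negative fold changes and 3 were called lower, all with a level above 800. With doxycycline 21 were negative and 0 were called lower, while the site at chrX:40004310-40004480 was called higher. That site had a level of 114 with doxycycline, against 47.8 in untreated cells (1.26 ± 0.25), and its Aza value was 0.52 ± 0.26. In TRIO and MAML2 no site was called with either treatment. VAV2 held 10 sites of which 3 were called higher with Aza, all more than 100 kb from its start. These 3 were weak, with untreated levels of 4.02, 0.367 and 4.14, so their fold changes rest on few reads. The VAV2 site of highest level, 90.2, was not called with Aza (0.48 ± 0.23) but was called higher with doxycycline (0.82 ± 0.23). The site closest to the VAV2 start had -0.05 ± 0.39 with Aza. In LMO4, a LIM-only transcription cofactor gene, all 9 sites had negative fold changes with each treatment. Only the site 3210 bases from its start was called, lower with both (-1.03 ± 0.16 and -0.74 ± 0.16). The LMO4 site of highest level, 497, was near 0 (-0.05 ± 0.15 and -0.07 ± 0.15).

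**Figure D4:**
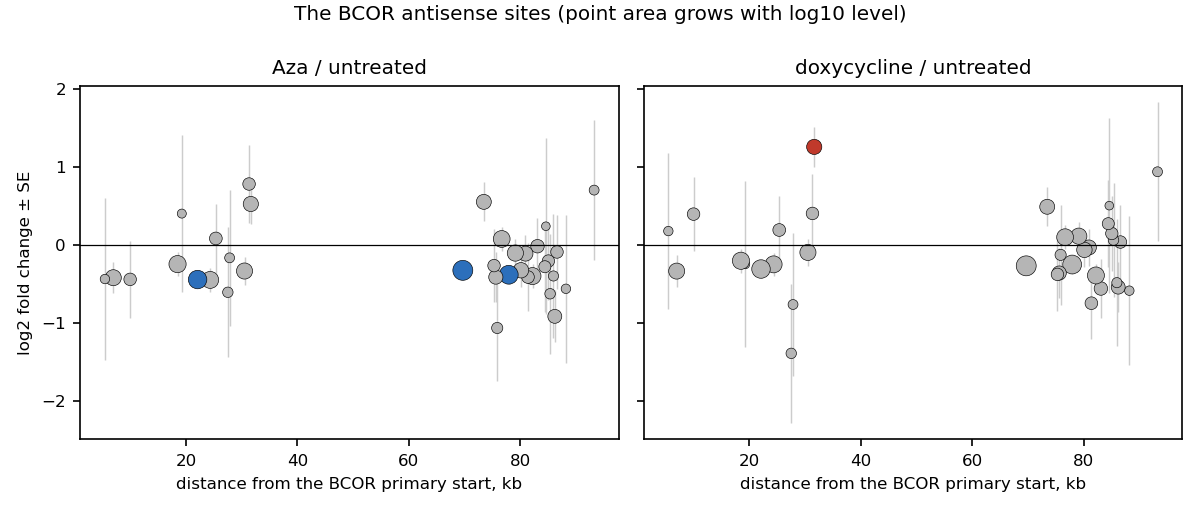
The 35 BCOR antisense sites by distance from the BCOR primary start (kb) and log2 fold change with its standard error, for Aza (left) and doxycycline (right) over untreated cells. Point area grows with log10 of the level; 3 sites called lower with Aza are blue, the 1 called higher with doxycycline is red, and grey sites were not called.

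Host groups were read from gene names or short lists, and each holds few sites, so their counts are a description with no test. Zinc finger genes held 47 sites in 32 hosts, of which 5 were called lower with Aza (2 in ZNF703, and 1 each in ZNF467, ZNF782 and ZNF185) and 1 higher (ZNF532), and 0 with doxycycline. The share called lower with Aza was 10.6% of these sites, beside 3.24% of the class. Their median fold change was 0.01 with Aza, beside 0.04 over all sites. Of the 16 sites in p53 target genes, 2 were called lower with Aza and the same 2 with doxycycline, both in BBC3, which encodes the cell death protein PUMA. That is 12.5% of the list, beside 3.24% of all sites called lower with Aza and 0.92% with doxycycline. The list had 6 hosts, and BBC3 alone held 8 of the 16 sites, so the share rests on 1 gene. The fold changes of the 2 called sites were -0.78 ± 0.21 and -1.07 ± 0.23 with Aza and -0.75 ± 0.21 and -0.81 ± 0.23 with doxycycline. The strongest BBC3 site, at 1646 with Aza, 1976 with doxycycline and 1998 in untreated cells, was not called (-0.28 ± 0.11 and -0.02 ± 0.11). Collagen genes held 6 sites, and 1 (16.7%), in COL6A1, was called higher with both treatments, beside 2.39% and 2.56% of the class. Its level was 20.7 with Aza and 21.4 with doxycycline, against 2.86 in untreated cells. The median over the collagen sites was -0.06 with Aza and 0.67 with doxycycline. The 2 sites in COL14A1 were not called and had negative values with both treatments (-0.40 ± 0.16 and -0.48 ± 0.51 with Aza). The 6 sites in genes of the methylation machinery, among them DNMT3A and DNMT3B, the 13 in the histone demethylase genes KDM2A and KDM4B, the 3 in the imprinted gene GRB10 and the 2 in HOXD13 were not called. No site lay in a clustered protocadherin gene.

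Many antisense sites faced a sense start site inside the same gene. Of the 2934, 1561 (53.2%) had a sense intragenic site within 1 kb, and 959 overlapped it. The share with such a partner was 54.3% of sites called higher with Aza and 86.3% of those called lower, and 68.0% and 74.1% with doxycycline. The calls at these partners went the way of the antisense site. Of 37 distinct partners of sites called higher with Aza, 12 were called higher and 0 lower. Of the 80 partners of sites called lower, 0 were called higher and 25 lower, against 2.41% and 3.38% of all sense intragenic sites. Over all 1226 distinct partners, 2.61% were called higher and 4.65% lower with Aza. The partners of lower sites had a median level of 67.0, against 20.4 over all partners. The share of sense intragenic sites called lower with Aza rose with level, from 0.101% under 10 to 27.6% at 300 and more. The part of level in these counts was not tested. With doxycycline 19 of 50 partners of higher sites were called higher and 0 lower, and 0 of 20 partners of lower sites were called higher and 5 lower (2.89% and 2.02% of the class). Over all distinct partners these shares were 3.83% and 2.61%. At PGF the partner changed by 3.16 ± 0.75 with Aza and 3.45 ± 0.74 with doxycycline. In CAMK1D the partner changed by -1.71 ± 0.41 with Aza, and it was also called lower with doxycycline. The 2 strands were read from the same libraries, so these are paired views of a locus and not separate evidence. By the order of midpoints, the partner pointed away at 46.1% of the 1561 antisense sites with a partner and toward the site at the rest. In the 959 overlapping pairs this order is only a rough guide to direction.

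The authors' table of dispersed antisense regions, from the same libraries, was read in the same hosts. In the hosts of sites called higher with Aza, 206 dispersed regions had a median fold change of 0.58, with 5 called higher and 0 lower, and in the hosts of sites called lower 319 regions had a median of -0.44, with 0 higher and 1 lower (0.432% and 0.036% of all 5550 regions). With doxycycline the medians were 0.53 and -0.44, with 2 and 0 called higher and 0 lower (0.18% and 0.0%).

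The PRO-seq libraries are separate from the PRO-cap ones and count polymerase along the sense strand of the host. Of 60 measured hosts of sites called higher with Aza, 20 were called higher in elongation with Aza and 2 lower, beside 7.55% and 7.22% of all 3697 genes tested. Of 85 hosts of sites called lower, 5 were called higher and 29 lower. Over all 1471 measured hosts the counts were 161 and 139. The median log2 change of elongation was 0.15 in hosts of higher sites and -0.15 in hosts of lower sites, beside 0.01 over all genes tested. With doxycycline 9 of 67 hosts of higher sites were called higher and 1 lower, and 0 of 26 hosts of lower sites were called higher and 6 lower, beside 3.46% and 2.06% of all genes. These counts carry no test of their own, since hosts were grouped by a call and share libraries within each assay.

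**Figure D5:**
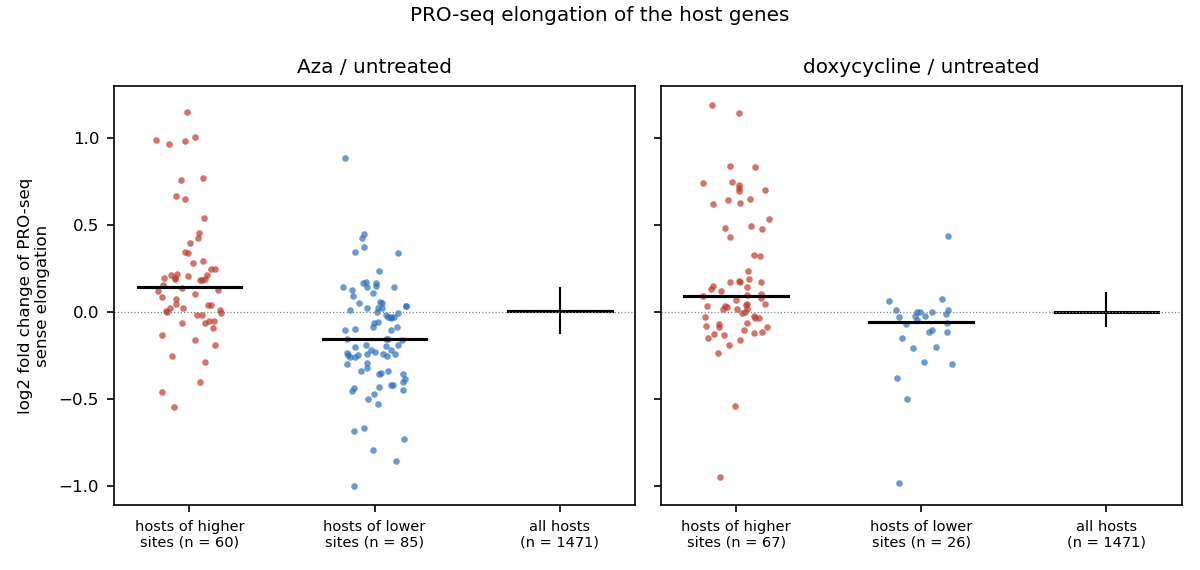
Each point is a host gene, placed by its log2 fold change of PRO-seq sense elongation with Aza (left) or doxycycline (right) over untreated cells, for hosts of antisense sites called higher (red) and lower (blue) with the same treatment. Black lines are medians (0.15 and -0.15 with Aza, 0.09 and -0.05 with doxycycline), and the third column gives the median and quartiles over all 1471 measured hosts.

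PGF rose on both strands, with elongation higher by 0.54 ± 0.11 with Aza and 0.74 ± 0.11 with doxycycline in the authors' deposited table. Elongation of RP11-321F6.1 rose by 0.99 ± 0.21 with Aza, and that of COL6A1 by 0.40 ± 0.10 with Aza and 0.48 ± 0.10 with doxycycline. At PPP1R15A the antisense site and sense elongation both fell, with elongation at -0.67 ± 0.12 and -0.50 ± 0.12, as at SH2D3C with -0.86 ± 0.16 and -0.98 ± 0.16. The primary start of PGF was called higher with doxycycline (0.53 ± 0.17). That of RP11-321F6.1 was called higher with Aza (4.42 ± 1.55), at a mean level of only 3.87. The primary starts of COL6A1, PPP1R15A and SH2D3C were not called. They changed by 0.01 ± 0.12 and -0.06 ± 0.12 at PPP1R15A and by 0.38 ± 0.39 and 0.08 ± 0.39 at SH2D3C. Some other hosts with a called site had no call in elongation. For H6PD elongation changed by 0.08 ± 0.06 with Aza and 0.03 ± 0.06 with doxycycline, for SMAD6 by 0.01 ± 0.06 and -0.03 ± 0.06, and for CAMK1D by -0.03 ± 0.06 and -0.02 ± 0.06. A few hosts moved the opposite way. The 2 with a higher site and lower elongation with Aza were PTMA (-0.40) and TMEM132B (-0.55). The 5 with a lower site and higher elongation were ARID5B, CPNE5, INSR, SLC25A42 and EFCAB4B, the last at 0.34 ± 0.08. CPNE5 held 1 site called higher and 1 called lower with Aza, so its elongation is counted in both host groups.

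The host's own primary start site was read in the same PRO-cap libraries. Of 54 hosts of sites called higher with Aza, 3 had a primary start called higher and 7 lower, beside 4.84% called higher and 15.8% called either way among all genes with a primary start. Of 72 hosts of sites called lower, 1 was higher and 14 lower. With doxycycline the counts were 8 higher and 2 lower of 59 for hosts of higher sites, and 0 and 6 of 23 for hosts of lower sites (5.2% and 9.82% of genes). The median log2 fold change of the primary start with Aza was 0.10 in hosts of higher sites and -0.11 in hosts of lower sites, beside -0.02 over all tested. With doxycycline these medians were 0.19 and -0.06, beside -0.02. At SMAD6 the antisense site rose while the primary start fell by 0.40 on the log2 scale with Aza (adjusted p = 0.00302).

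Total RNA of the host genes was measured on each strand. Of the 1365 hosts found in the antisense total RNA table of HEK293 with Aza, 104 carried an adjusted p, and the other 1261 had none and could not be called. Of those 104, 0 were called by DESeq2, and 8 had an unadjusted p below 0.05, while 0.817% and 4.06% of all genes tested were called higher and lower. Among the 1261 with no adjusted p, 32 had an unadjusted p below 0.05 with a higher value in Aza-treated cells and 7 with a lower one. In the hosts of sites called higher with Aza, 54 of 56 had no adjusted p, and 7 of these 54 had an unadjusted p below 0.05, all with higher values. For GRM4 the shrunken log2 fold change of antisense RNA with Aza was 1.43 ± 0.61 in the authors' deposited table, at a mean level of 9.12, and with doxycycline it was 0.00. For KDM4B, none of whose 7 sites was called, it was 2.88 ± 0.52 with Aza at a mean level of 14.5, and 0.00 with doxycycline. This pair was chosen after the values were seen, and neither had an adjusted p. With doxycycline both genes had a standard error of 0.03, at mean levels of 6.41 and 5.09. Fold changes of weakly read genes were shrunken closely to 0 in that comparison. A value of 0.00 there therefore does not show that the 2 treatments differed. With doxycycline and TET-CD 76 hosts carried an adjusted p, 0 were called and 2 had an unadjusted p below 0.05 (0.152% called each way over all genes). Of the 1289 with none, 8 had an unadjusted p below 0.05 with a higher value and 6 with a lower one. With the mutant TETmut-CD 1359 hosts carried one, 0 were called and 22 had an unadjusted p below 0.05 (0.0% higher and 0.0057% lower). In U2OS, a human osteosarcoma line that carried TET-CD-GFP and was given 55 nM Aza or the same dose of doxycycline, 9 of 170 tested hosts were called higher and 5 lower with Aza (3.34% and 3.0% of genes), and 6 of 219 higher and 2 lower with doxycycline (1.6% and 0.571%). On the sense strand, 10 of 56 hosts of sites called higher with Aza had higher total RNA with Aza and 6 lower, and 6 of 78 hosts of sites called lower had higher RNA and 4 lower (7.17% and 7.14% of genes). Total RNA tables hold fold changes shrunken toward 0, so their sizes are not set beside those of the start sites.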

How the data were processed

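The 21 deposited tables of PRO-cap, PRO-seq and total RNA hold comparisons of groups and no sample columns, which leaves no model to refit. According to the submitters' processing notes, Trim Galore 0.4.3, STAR 2.4.2, bedtools 2.20.1, R 3.5.1 and DESeq2 1.22.1 were used with hg19 and chicken galGal5. Made by the authors, the signal column is a mean of normalised counts per site or gene over the libraries of a comparison set. The authors' log2 columns give fold changes and standard errors, which the text keeps unchanged. On this log2 scale the authors put the treated group over untreated cells. The authors also give a Wald score, found here to equal each fold change divided by its error. The deposited p-value columns hold raw and Benjamini-Hochberg adjusted values, and recomputing the adjustment within each of the 7 start-site tables gave the deposited values. How counts were normalised, and the part of the spike-in in it, is not given in the sources used here, so a change of all sites at once could not be seen. Depth per library is unknown.

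Group levels were worked out as the mean times 3 over 1 plus both fold changes, then times each fold change. Distances run between midpoints, and gaps between interval ends. Where a gene had several rows, that with the highest level was used. Named sites were the 8 with the largest fold changes each way at a level of at least 20, 1 per host, the 8 of highest level, up to 10 called the same way with both treatments, up to 3 per host list and the top site of the 3 hosts with most sites. FBLN1, PTMA, LMO4, VAV2, TMEM132B and the list members named by their call were chosen after their values were seen. The members and lists were chosen with earlier results of these data known. The list of solute carrier hosts is not reported here. Tested on simulated fold changes, every call on a changed site had the right sign, while most small changes were not called. The simulated noise was drawn from the deposited standard errors, so it could not check those errors or the normalisation. Python 3.11.15, pandas 2.3.3 and scipy 1.17.1 were used.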

Additional observations from a re-analysis of the deposited data

How the results depend on the processing

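At an adjusted p threshold of 0.01, sites called higher and lower with Aza numbered 43 and 46, and with doxycycline 40 and 9. At 0.1 the doxycycline counts were 119 and 47. Between Aza and doxycycline 1 site was higher at 0.1 and 1 when p-values were adjusted over all 7 classes. The other counts over sites stayed within 1.5 times under a level minimum of 10, centring on the median of this class or of primary start sites, and 1 site per host gene. The signs of the Aza and doxycycline medians turned with the level minimum and with 1 site per host. For host elongation with Aza, thresholds of 0.01 and 0.1 gave 8 and 31 higher and 1 and 5 lower among hosts of higher sites. Among hosts of lower sites they gave 1 and 9 higher, and 0.01 gave 14 lower. With doxycycline they gave 5 and 16 higher among hosts of higher sites, 3 lower there at 0.1, and 1 and 11 lower among hosts of lower sites. For the hosts' primary starts with Aza, they gave 1 and 7 higher among hosts of higher sites, 2 lower there at 0.01, 2 higher at 0.1 and 4 lower at 0.01 among hosts of lower sites. With doxycycline these were 2 and 19 higher, 1 and 8 lower, and 0 lower at 0.01. Leaving out libraries in turn was not run, because the tables hold no value per library. No paired analysis was possible because the tables hold comparisons and no columns of samples. The unknown depth and the standard errors at low levels limit what a single site can show.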
